A study of Mus musculus with 20 samples.

Results

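The interleukin-1 (IL-1) family was followed here through 10 genes of the cytokine and receptor system in sorted cells of mouse mammary tumours. The list held the ligand genes Il1a, Il1b, Il18 and Il33, the antagonist gene Il1rn, the receptor genes Il1r1, Il1rap, Il1rl1 and Il1r2, and the inflammasome sensor gene Nlrp3. All 10 were found among the 52783 genes of the deposited table by their mouse Ensembl identifiers. The members were chosen by name with results of the same libraries known, and Il1a, Il1rn and Nlrp3 were among the genes picked in the study from their levels in 66cl4 and 67NR CD45+ cells. The comparison of the tumours in CD45+ cells is therefore given as a description, without a test of the members.

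66cl4 and 67NR are mammary carcinoma cell lines of the same mouse tumour family, of which 66cl4 gives metastases and 67NR does not. In each tumour group, 1000000 cells were injected into the fourth mammary fat pad of BALB/cJ females, bought at 8 to 12 weeks of age, and the primary tumours were collected 21 to 26 days later. Each of 10 mice gave a CD45+ (immune) and a CD45- (non-immune) sorted fraction, which made 4 groups of 5 libraries (66cl4 CD45+, 66cl4 CD45-, 67NR CD45+ and 67NR CD45-). The CD45- fraction of such a tumour holds the carcinoma cells together with fibroblasts, endothelial cells and other stroma, and each tumour group stems from a single cell line. The labels name neither an engineered allele nor a treatment in any group. The libraries held 12960000 to 28080314 estimated counts. For animals 5 and 6 with 66cl4 tumours, the recorded cell type went against the sample name, and these 4 libraries were grouped by name. Ptprc, which encodes CD45, was at 15890 to 28450 normalised counts in the 10 libraries named CD45+ and at 10.6 to 473 in the 10 named CD45-, animals 5 and 6 included. Normalised counts are estimated counts divided by the library's size factor. The mean of Ptprc in CD45- libraries was 0.386% of that in CD45+ libraries of 66cl4 tumours and 1.22% in 67NR tumours.

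IL-1 alpha and IL-1 beta are inflammatory cytokines that signal through the receptor IL1R1 with its accessory chain IL1RAP, and the same accessory chain serves the IL-33 receptor encoded by Il1rl1 (ST2). IL-1 beta and IL-18 are made as inactive precursors that caspase-1 cleaves after an inflammasome such as that of NLRP3 has assembled, whereas IL-33 is an alarmin kept in the nucleus of stromal and barrier cells. The pathway is held back by the receptor antagonist encoded by Il1rn, which occupies IL1R1 without signalling, and by IL1R2, a decoy receptor that binds IL-1 and has no signalling domain. In tumours, the ligands are known mainly from myeloid cells, and the IL-1 receptor from fibroblasts, endothelium and some carcinoma cells.

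The sequences before the transcription starts are shown for Il1a, Il1b, Il1rn and Nlrp3, which were higher in CD45+ cells, and for Il33, which was lower in them. They are the 250 bases before an annotated start, 5′ to 3′ on the gene's strand, from RefSeq on GRCm38.p6. All 10 members matched that source, with 16 starts in all. Capitals mark the TATA box (TATAAA), the AP-1 motif (TGANTCA) and the NF-kB consensus, searched on both strands. Of genes with several starts, a start with a marked motif before it is shown, and for Il33, where both had one, the start closer to it.
Il1a (chr2:129309973-129310222, minus strand): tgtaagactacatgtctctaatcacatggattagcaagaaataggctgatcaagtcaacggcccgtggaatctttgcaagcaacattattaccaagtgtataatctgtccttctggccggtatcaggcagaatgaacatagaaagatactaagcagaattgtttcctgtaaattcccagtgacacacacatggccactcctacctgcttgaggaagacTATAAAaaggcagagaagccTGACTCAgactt
Il1b (chr2:129371140-129371389, minus strand): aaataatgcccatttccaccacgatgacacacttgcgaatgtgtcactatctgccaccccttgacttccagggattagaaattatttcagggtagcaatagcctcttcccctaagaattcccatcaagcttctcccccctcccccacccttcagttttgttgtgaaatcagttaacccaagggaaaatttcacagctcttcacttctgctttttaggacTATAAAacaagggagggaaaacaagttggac
Il1rn (chr2:24336610-24336859, plus strand): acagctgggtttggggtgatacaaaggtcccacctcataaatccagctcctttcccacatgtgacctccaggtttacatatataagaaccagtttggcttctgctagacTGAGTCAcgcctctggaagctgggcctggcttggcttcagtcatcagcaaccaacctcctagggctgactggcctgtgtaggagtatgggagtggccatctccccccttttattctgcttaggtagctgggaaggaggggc
Nlrp3 (chr11:59541319-59541568, plus strand): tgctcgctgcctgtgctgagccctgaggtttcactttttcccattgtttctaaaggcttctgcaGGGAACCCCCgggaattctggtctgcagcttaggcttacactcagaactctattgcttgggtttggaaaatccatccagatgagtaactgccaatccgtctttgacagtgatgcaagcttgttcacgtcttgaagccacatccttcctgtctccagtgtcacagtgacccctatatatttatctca
Il33 (chr19:29945540-29945789, plus strand): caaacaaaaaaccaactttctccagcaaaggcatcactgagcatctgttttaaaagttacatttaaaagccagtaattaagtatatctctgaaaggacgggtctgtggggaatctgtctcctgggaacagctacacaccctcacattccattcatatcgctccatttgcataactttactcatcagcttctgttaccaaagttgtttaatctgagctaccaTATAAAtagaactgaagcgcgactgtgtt

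The TATA box began 32 bases before the start of Il1a, 31 before that of Il1b and 29 before the Il33 start shown. The AP-1 motif, which reads the same on both strands, began 12 bases before the start of Il1a and 141 before that of Il1rn. The NF-kB consensus began 186 bases before the Nlrp3 start shown, and was found on both strands at the same place. None of the marked motifs overlapped another in these sequences. Of 32851 promoters of 300 bases from the same source, which run 50 bases past the start, 13.6% held the TATA box, 7.81% the AP-1 motif and 8.46% the NF-kB consensus. A match describes letters in the sequence and is not a measured site of binding.

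In both tumours, the ligand genes Il1a, Il1b and Il18, the antagonist Il1rn, the decoy receptor Il1r2 and Nlrp3 rose in CD45+ over CD45- cells, while Il33, its receptor gene Il1rl1 and the IL-1 receptor gene Il1r1 were lower there. Genes were called where edgeR's quasi-likelihood test gave an adjusted p under 0.05, with the Benjamini-Hochberg adjustment over all genes tested, and the log2 fold change was over 1 in size. In 66cl4 tumours 7 members were called higher and 3 lower in CD45+ cells, and over all 14916 genes tested the calls made up 23.9% higher and 20.5% lower. In 67NR tumours 6 members were called higher and 3 lower, beside 20.2% higher and 19.6% lower over 15063 genes. Il1a is among those called higher in both tumours, and it entered these fits only through the CD45+ libraries, where it is high. The median log2 fold change of the 10 members was 4.45 in 66cl4 and 2.88 in 67NR tumours, where that of all genes was 0.00 and -0.05. Adding the animal as a block, since both fractions came from the same mouse, left each count of calls as it was. The CD45+ libraries, in which results of members were known when the list was made, are an arm of both gate comparisons. The counts, medians and p values of members between the gates are therefore a description and not independent evidence.

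Between the tumours, the members differed in CD45- cells too. Of the 9 members tested there, Il1r2 was called higher in 66cl4, and Il1r1, Il1rap, Il18 and Il33 were called lower. The share of all 14844 genes called was 13.2% higher and 18.9% lower, and the median log2 fold change was -1.10 for the members and -0.01 for all genes. In CD45+ cells, where the members had been chosen on such values, 5 were past the same thresholds as higher in 66cl4 (Il1a, Il1b, Il1rn, Il1r2 and Nlrp3) and 3 as lower (Il1r1, Il33 and Il1rl1). There the calls over all 14676 genes were 5.01% higher and 6.82% lower. Without animals 5 and 6 with 66cl4 tumours, 5 of the 8 stayed past the thresholds, and Il1b, Il1r2 and Il1rl1 did not, with log2 fold changes of 0.88, 1.59 and -1.52 in place of 1.25, 2.00 and -1.45. In these bulk libraries, fewer cells of a type and less RNA per cell cannot be told apart.

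**Figure D1:**
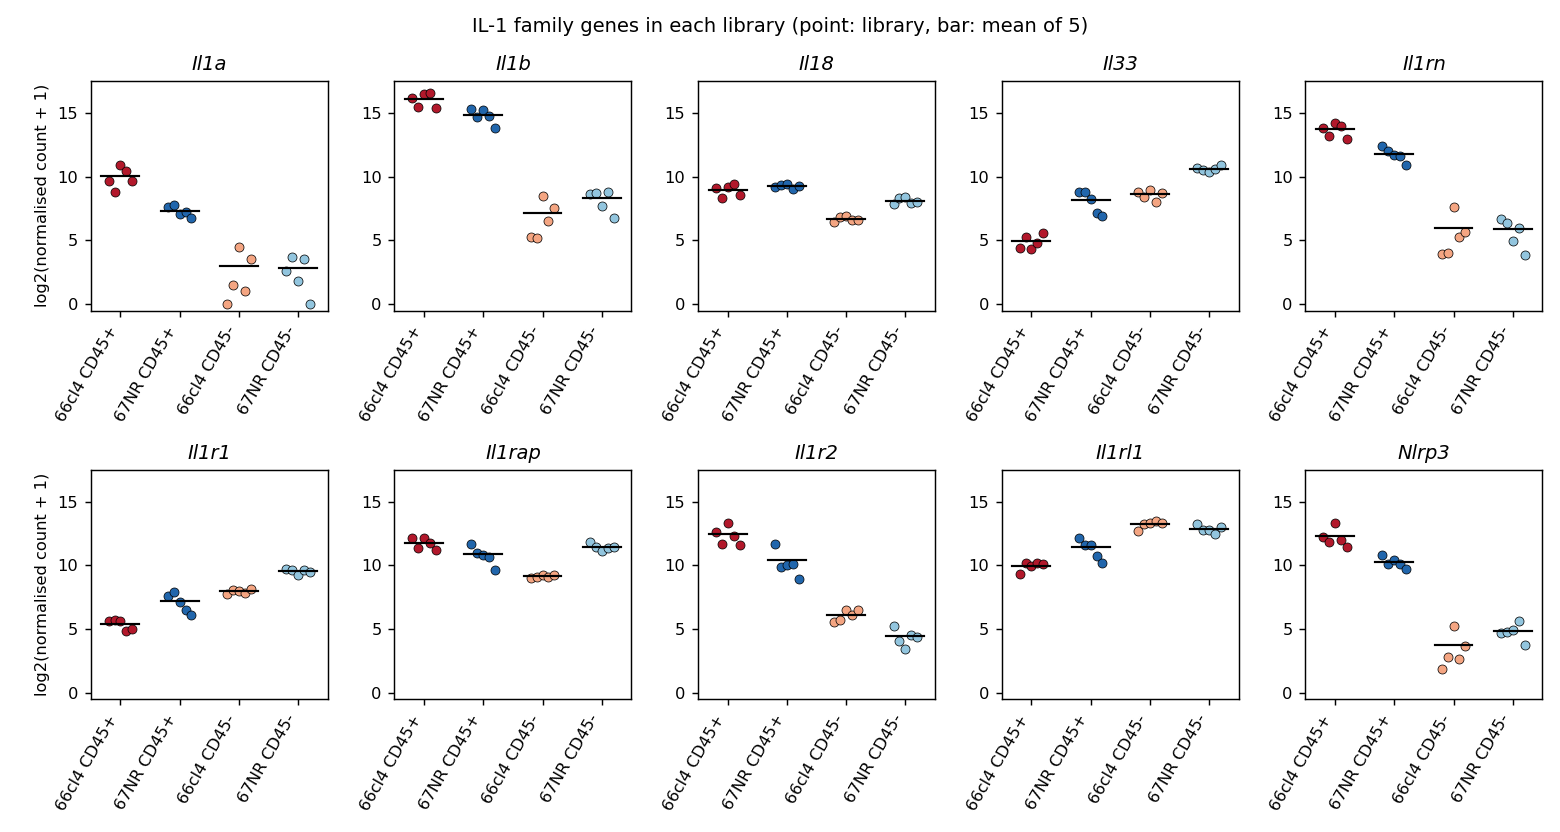
Level of each IL-1 family gene in the 20 libraries, as log2(normalised count + 1) on the vertical axis, by group (5 libraries each). Points are libraries, in order of animal number, and bars the log2 of the group mean plus 1. Il1a, Il1b, Il1rn, Il1r2 and Nlrp3 lie far higher in both CD45+ groups than in both CD45- groups, and Il1rl1 lies highest in the CD45- groups.

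Il1b (ENSMUSG00000027398, chr2:129364570-129371139, minus strand, GRCm38), the gene of IL-1 beta, was the ligand with the highest level per kilobase in CD45+ cells. In 66cl4 CD45+ cells it was at 75182, 44357, 90473, 96203 and 42569 normalised counts in animals 3, 4, 5, 6 and 7. In 67NR CD45+ cells the values were 41008, 25586, 38089, 27104 and 14560 in animals 1, 4, 5, 6 and 7. Every 66cl4 library was above every 67NR library, though animal 7 of the first group and animal 1 of the second lay close together. The means were 69757 ± 25211 and 29269 ± 10609 (SD, n = 5), a log2 fold change of 1.25 ± 0.32 (SE). In CD45- cells Il1b was at 38.5, 36.2, 365, 91.4 and 186 in 66cl4 and at 408, 416, 205, 440 and 106 in 67NR tumours, so the groups overlapped. The log2 fold change of 66cl4 to 67NR there was -1.10 ± 0.68 and was not past the threshold (edgeR adjusted p = 0.18). Without the CD45- library of animal 5 with a 66cl4 tumour it was -1.80 (adjusted p = 0.025). The CD45- mean of Il1b was 0.206% of the CD45+ mean in 66cl4 and 1.08% in 67NR tumours, beside 0.386% and 1.22% for Ptprc. The part of remaining CD45+ cells in these CD45- levels was not tested. Il1b rose in CD45+ over CD45- cells by 8.89 ± 0.77 on the log2 scale in 66cl4 (adjusted p = 7.1e-07) and by 6.54 ± 0.48 in 67NR tumours (adjusted p = 4.1e-07).

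Il1a (ENSMUSG00000027399, chr2:129299610-129309972, minus strand), the neighbour of Il1b on chromosome 2, encodes IL-1 alpha, which is active without cleavage. It was at 801, 447, 1951, 1427 and 792 normalised counts in 66cl4 CD45+ cells of animals 3, 4, 5, 6 and 7. In 67NR CD45+ cells it was at 192, 221, 132, 146 and 105 in animals 1, 4, 5, 6 and 7. The lowest 66cl4 library was above the highest 67NR library, and the log2 fold change of 2.77 ± 0.39 was the largest positive value among the 10 members in CD45+ cells. Per kilobase of transcript, the level of Il1a was 0.0104 ± 0.0034 of that of Il1b in 66cl4 and 0.0040 ± 0.0014 in 67NR CD45+ cells (SD, n = 5). In CD45- cells Il1a was at 0 to 21.6 in 66cl4 and at 0 to 12 in 67NR libraries, with 1 library at 0 in each group, where a count of 0 still allows up to 3 counts. It was too low there for the fit, and the means of 7.11 and 6.17 gave p = 0.897 in an exact two-sided permutation test over 252 regroupings. Il1a rose in CD45+ over CD45- cells by 7.13 ± 0.68 on the log2 scale in 66cl4 and by 4.61 ± 0.52 in 67NR tumours. It passed the filter on low counts for these fits only through the CD45+ libraries, where it is high. The filter thus set its direction, and no p is given.

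Il18 (ENSMUSG00000039217, chr9:50554827-50581840, plus strand) encodes IL-18, a cytokine that drives interferon gamma from T and NK cells. Its CD45+ levels overlapped between the tumours, at 544, 316, 596, 694 and 380 in 66cl4 and 599, 642, 683, 532 and 614 in 67NR libraries, with a log2 fold change of -0.27 ± 0.19. In CD45- cells it was at 86.3, 117, 121, 98.8 and 95.8 in 66cl4 and at 233, 317, 332, 250 and 258 in 67NR tumours. No library overlapped, and Il18 was lower in 66cl4 CD45- cells by a log2 fold change of -1.38 ± 0.14 (adjusted p = 9.2e-07). It rose in CD45+ over CD45- cells by 2.25 ± 0.21 in 66cl4 (adjusted p = 7.6e-07) and by 1.14 ± 0.13 in 67NR tumours (adjusted p = 1.1e-05), both on the log2 scale.

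Il33 (ENSMUSG00000024810, chr19:29925114-29960718, plus strand), the alarmin gene, was the ligand that lay in the CD45- fraction. It was at 438, 334, 505, 263 and 419 normalised counts in 66cl4 CD45- cells and at 1612, 1472, 1317, 1535 and 1954 in 67NR CD45- cells. The groups were wide apart, and the log2 fold change of 66cl4 to 67NR was -1.98 ± 0.16 (adjusted p = 1.3e-07). In CD45+ cells Il33 was at 20.9, 38.2, 19.3, 26.3 and 48.2 in 66cl4 and at 448, 444, 300, 144 and 118 in 67NR libraries. Here too no library overlapped, with a log2 fold change of -3.23 ± 0.45. Il33 was lower in CD45+ than in CD45- cells by a log2 fold change of -3.67 ± 0.27 in 66cl4 (adjusted p = 1.1e-07) and -2.43 ± 0.36 in 67NR tumours (adjusted p = 0.00012).

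The inhibitor genes Il1rn and Il1r2 lay in CD45+ cells, with the ligand genes Il1a, Il1b and Il18. Il1rn (ENSMUSG00000026981, chr2:24336853-24351494, plus strand), the receptor antagonist, was at 14739, 9478, 18678, 16038 and 8141 normalised counts in 66cl4 CD45+ cells. The 67NR CD45+ libraries held 5330, 4209, 3412, 3179 and 1891, all below the lowest 66cl4 library, with a log2 fold change of 1.89 ± 0.31. Per kilobase, the level of Il1rn was 0.195 ± 0.018 of that of Il1b in 66cl4 and 0.126 ± 0.027 in 67NR CD45+ cells, with ranges of 0.167 to 0.214 and 0.0895 to 0.164. Antagonist and ligand were thus both higher in 66cl4 CD45+ cells. In CD45- cells Il1rn was at 14.6 to 193 in 66cl4 and 13.3 to 102 in 67NR libraries, a log2 fold change of 0.13 ± 0.76 (adjusted p = 0.89). It rose in CD45+ over CD45- cells by 7.70 ± 0.74 in 66cl4 (adjusted p = 1.8e-06) and by 5.95 ± 0.51 in 67NR tumours (adjusted p = 1.6e-06), on the log2 scale.

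Il1r2 (ENSMUSG00000026073, chr1:40074079-40125231, plus strand), the decoy receptor, was at 6223, 3293, 10155, 5198 and 3104 in 66cl4 CD45+ cells and at 3290, 960, 1054, 1126 and 486 in 67NR CD45+ cells. The groups overlapped through animal 1 of the 67NR tumours alone, and the log2 fold change was 2.00 ± 0.52. Il1r2 was also higher in 66cl4 CD45- cells, at 46.5, 52.4, 87.4, 68.0 and 90.8, than in 67NR CD45- cells, at 37.7, 15.8, 9.66, 22.7 and 19.4. No library overlapped there and the log2 fold change was 1.74 ± 0.32 (adjusted p = 0.00027). The summed neutrophil markers ran the other way in these CD45- libraries, from 153 to 514 for 66cl4 and from 669 to 978 for 67NR tumours. Cxcr2 made up 96.9 to 138 of that sum in 66cl4 and 402 to 681 in 67NR libraries. Its CD45- mean was 2.21% of the CD45+ mean in 66cl4 and 35.4% in 67NR tumours, beside 0.199% and 1.53% for S100a8. Of the 6 neutrophil markers tested in CD45- cells, 2 were called lower in 66cl4, and 5 of 7 without animals 5 and 6 with 66cl4 tumours. Ngp and Camp were at 0 in all 66cl4 CD45- libraries. Ptprc was at 10.6 to 161 and 145 to 473 in the same libraries. The part of neutrophils in the CD45- levels of Il1r2 was not tested. Between the gates, Il1r2 rose in CD45+ cells by 6.30 ± 0.39 in 66cl4 (adjusted p = 4.5e-08) and by 6.04 ± 0.59 in 67NR tumours (adjusted p = 4.3e-06), on the log2 scale.

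Il1r1 (ENSMUSG00000026072, chr1:40225080-40317257, plus strand), the signalling receptor for both IL-1 ligands, had the opposite order. It was at 219, 271, 254, 230 and 287 normalised counts in 66cl4 CD45- cells and at 849, 792, 597, 810 and 725 in 67NR CD45- cells. Il1r1 was lower in 66cl4 CD45- cells by a log2 fold change of -1.55 ± 0.11 (adjusted p = 3.4e-08), with no overlap. In CD45+ cells it was at 50.1, 52.6, 50.1, 28.4 and 31.3 in 66cl4 and at 195, 242, 141, 87.5 and 68.9 in 67NR libraries, a log2 fold change of -1.79 ± 0.36. The CD45+ level was below the CD45- level in every animal, with log2 fold changes of -2.60 ± 0.19 in 66cl4 (adjusted p = 8.7e-08) and -2.36 ± 0.32 in 67NR tumours (adjusted p = 5.2e-05). Per kilobase, decoy to signalling receptor stood at 941 ± 407 in CD45+ cells of 66cl4 and 67.6 ± 36.1 in those of 67NR tumours (SD, n = 5). In the CD45- fractions the ratio was 1.91 ± 0.47 for 66cl4 and 0.190 ± 0.076 for 67NR tumours. The sizes of these ratios rest on the transcript lengths used, whereas their order over the groups does not.

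Il1rap (ENSMUSG00000022514, chr16:26581704-26730117, plus strand), the accessory chain shared by the IL-1 and IL-33 receptors, behaved differently in the tumours. It was at 530, 534, 620, 544 and 618 in 66cl4 CD45- cells and at 3564, 2719, 2272, 2624 and 2817 in 67NR CD45- cells. Every 66cl4 library was far below every 67NR library, with a log2 fold change of -2.27 ± 0.12 (adjusted p = 8.6e-10). In CD45+ cells the libraries overlapped, at 4451, 2679, 4644, 3476 and 2378 in 66cl4 and 3256, 1963, 1788, 1575 and 780 in 67NR tumours, and the log2 fold change of 0.91 ± 0.34 was under the fold threshold. Il1rap rose in CD45+ over CD45- cells of 66cl4 tumours, by 2.60 ± 0.18 on the log2 scale (adjusted p = 5.6e-08). In 67NR tumours the log2 fold change of CD45+ to CD45- cells was -0.57 ± 0.30 and did not pass (adjusted p = 0.12).

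Il1rl1 (ENSMUSG00000026069, chr1:40429570-40465415, plus strand), the IL-33 receptor ST2, was the receptor with the highest level per kilobase in CD45- cells. It was at 6513, 9477, 10032, 11447 and 10048 normalised counts in 66cl4 and at 9975, 6864, 7077, 5582 and 8209 in 67NR CD45- cells. The groups overlapped, and the log2 fold change of 0.36 ± 0.17 did not pass the threshold (adjusted p = 0.068). In CD45+ cells Il1rl1 was at 630, 1138, 1001, 1136 and 1092 in 66cl4 and at 4540, 3078, 3105, 1710 and 1192 in 67NR libraries, a log2 fold change of -1.45 ± 0.34. The lowest 67NR library was just above the highest 66cl4 library. Il1rl1 was lower in CD45+ than CD45- cells by a log2 fold change of -3.27 ± 0.20 in 66cl4 (adjusted p = 2.6e-08) and -1.46 ± 0.33 in 67NR tumours (adjusted p = 0.0021). The IL-33 ligand was thus called lower in 66cl4 CD45- cells while its receptor gene was not called there.

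Nlrp3 (ENSMUSG00000032691, chr11:59541568-59566956, plus strand), the inflammasome sensor, followed the IL-1 ligands. It was at 4862, 3719, 10122, 4137 and 2782 in 66cl4 CD45+ cells and at 1775, 1121, 1398, 1088 and 827 in 67NR CD45+ cells, without overlap and with a log2 fold change of 2.04 ± 0.35. In CD45- cells it was at 2.65 to 37.5 in 66cl4 and 12.3 to 49.2 in 67NR libraries, a log2 fold change of -1.10 ± 0.57 (adjusted p = 0.10). Without the 66cl4 CD45- library of animal 5, which held the 37.5, the log2 fold change was -2.04 (adjusted p = 0.0016). The CD45- mean of Nlrp3 was 0.248% of the CD45+ mean in 66cl4 and 2.30% in 67NR tumours, beside 0.386% and 1.22% for Ptprc. This share was 0.656% and 3.87% for Il1a and 0.461% and 1.61% for Il1rn. Its median over markers differed by cell type. In 66cl4 tumours it was 0.199% for neutrophil, 1.18% for macrophage, 1.21% for mast cell, 0.490% for T cell and 0.858% for NK cell markers. In 67NR tumours these medians were 2.1%, 2.53%, 27.6%, 1.28% and 0.535%. The part of remaining CD45+ cells in these CD45- levels was not tested. Nlrp3 rose in CD45+ over CD45- cells by 8.54 ± 0.63 in 66cl4 (adjusted p = 1.7e-07) and by 5.42 ± 0.33 in 67NR tumours (adjusted p = 9.5e-08), on the log2 scale.

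**Figure D2:**
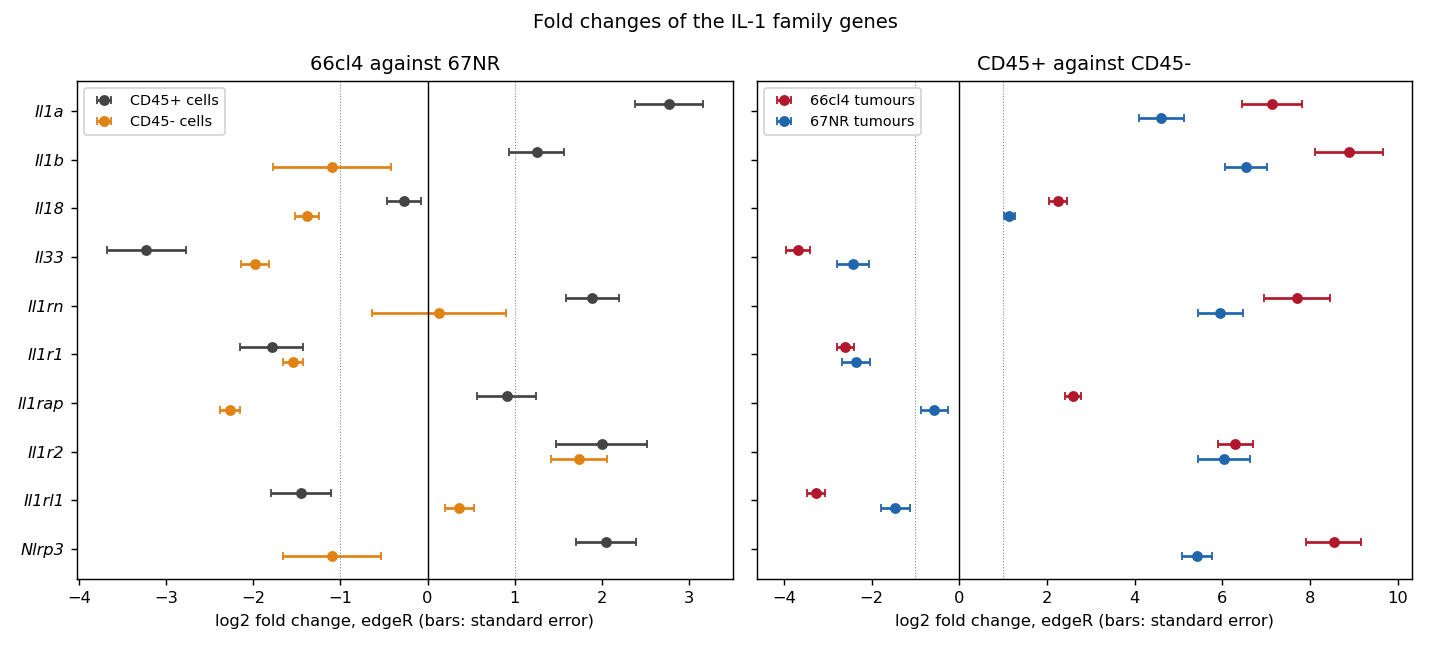
Log2 fold changes of the 10 genes with their standard errors from edgeR, between the tumours (left, in CD45+ and CD45- cells) and between the gates (right, in 66cl4 and 67NR tumours), each from 5 against 5 libraries. Dotted lines mark a log2 fold change of 1 in either direction. Il1rap lies at 0.91 in CD45+ and -2.27 in CD45- cells between the tumours, and Il1a has no CD45- point because it was too low for that fit.

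The tumour difference in CD45+ cells was set against that in CD45- cells in a single fit of all 20 libraries. The signed log2 fold change of 66cl4 to 67NR in CD45+ cells minus that in CD45- cells was 3.20 ± 0.37 for Il1rap, 3.15 ± 0.66 for Nlrp3, 2.57 ± 0.95 for Il1a, 2.38 ± 0.73 for Il1b and 1.12 ± 0.25 for Il18. It was negative for Il1rl1 and Il33, at -1.79 ± 0.39 and -1.21 ± 0.46. A positive value is not by itself a larger change in CD45+ cells, as Il1rap was at 0.91 in CD45+ and -2.27 in CD45- cells and Il18 at -0.27 and -1.38. These 7 were past an adjusted p of 0.05, 5 with a positive and 2 with a negative value, beside 21.9% positive and 21.2% negative of all 16453 genes. With the animal as a block, Il1rn joined them at 2.09 ± 0.57 and Il33 left at -1.08 ± 0.51. One arm of this difference is the CD45+ comparison in which the members had been chosen, so no more is read from the count. In the other arm, the CD45- means of Il1a, Il1b and Nlrp3 were 0.206% to 3.87% of the CD45+ means. Those of Ptprc were 0.386% and 1.22%. Over the lists of immune cell markers, the median share ran from 0.199% to 1.21% in 66cl4 and from 0.535% to 27.6% in 67NR tumours.

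Il1a, Il1b, Il1rn, Il1r2 and Nlrp3 were highest in 66cl4 CD45+ cells, then in 67NR CD45+ cells, with both CD45- groups far below. The CD45+ groups overlapped in Il1r2 alone of these, and the CD45- groups overlapped in Il1a, Il1b, Il1rn and Nlrp3. Il33 and Il1r1 were highest in 67NR CD45- cells, followed by 66cl4 CD45- and 67NR CD45+ cells, which overlapped, and were lowest in 66cl4 CD45+ cells. Il1rl1 was highest in both CD45- groups, which overlapped, followed by 67NR CD45+ and then 66cl4 CD45+ cells. Il18 overlapped between the CD45+ groups, and again between 66cl4 CD45+ and 67NR CD45- cells, with 66cl4 CD45- cells lowest. Il1rap was highest in 66cl4 CD45+ cells, then in 67NR CD45- and 67NR CD45+ cells, each overlapping the next, and lowest in 66cl4 CD45- cells.

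Marker genes of several cell types differed between the same libraries. In CD45+ cells the summed level of 10 neutrophil markers was 44355 to 125374 in 66cl4 and 7225 to 52470 in 67NR libraries, and 5 of the 9 markers tested were called higher in 66cl4. Most of that sum was S100a8 and S100a9, with means of 24652 and 47089 in 66cl4 and 5861 and 11704 in 67NR tumours. Ngp, Ltf and Camp ran the other way, at 41.8, 39.9 and 3.68 in 66cl4 and 62.3, 41.3 and 10.6 in 67NR tumours. Animal 1, which held the highest Il1r2 of the 67NR CD45+ group, also held its highest neutrophil sum. The summed level of 10 macrophage markers ran the other way, at 59695 to 93645 in 66cl4 and 104182 to 159584 in 67NR CD45+ libraries, and 2 of 10 were called lower in 66cl4. The summed level of 10 monocyte markers was 115599 to 231172 in 66cl4 and 64946 to 75659 in 67NR CD45+ libraries, with 3 of 10 called higher in 66cl4 and 2 lower. Fn1, which other cells also express, made up 60389 to 154770 of that sum in 66cl4 and 12441 to 26623 in 67NR libraries. The summed level of 8 NK cell markers was 1478 to 5784 in 66cl4 and 5301 to 62995 in 67NR CD45+ libraries, and all 7 tested were called lower in 66cl4. Without the 66cl4 animals whose recorded cell type went against the sample name, 2 of 9 neutrophil markers tested were called higher. Without those animals, 5 of 7 NK cell and 3 of 10 macrophage markers were called lower, and the monocyte counts were the same. The part of neutrophils, macrophages, monocytes and NK cells in the levels of Il1a, Il1b, Il1rn, Il1r2 and Nlrp3 was not tested.

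Il33, Il1r1 and Il1rl1 in CD45+ cells are set beside genes of non-immune cells. The summed level of 10 fibroblast markers in 67NR CD45+ cells was 3112, 3987, 1829, 1256 and 1004 in animals 1, 4, 5, 6 and 7, and Il33 and Il1r1 were likewise highest in animals 1 and 4 and lowest in 7. In 66cl4 CD45+ cells the sum was 239, 785, 574, 754 and 1689 in animals 3, 4, 5, 6 and 7. Il33 was likewise highest in animal 7 there, whereas Il1r1 was at 31.3 in that animal and at 50.1 in animal 3, which had the lowest sum. Of the 10 fibroblast markers, 4 were called lower there than in 67NR CD45+ cells, and 2 without animals 5 and 6 with 66cl4 tumours. The CD45+ mean of Il33 was 7.80% of the CD45- mean in 66cl4 and 18.4% in 67NR tumours, that of Il1r1 16.9% and 19.5%, and that of Il1rl1 10.5% and 36.1%. For the 10 fibroblast markers this share was 4.03% to 122% in 66cl4, with a median of 7.34%, and 5.42% to 46.9% in 67NR tumours, with a median of 9.55%. Mast cells are known to express ST2, and the summed level of 10 mast cell markers was 4300 to 13415 in 66cl4 and 24372 to 32453 in 67NR CD45+ libraries, where 8 of 10 were called lower in 66cl4 and Hdc higher. Without animals 5 and 6 with 66cl4 tumours, 8 mast cell markers were called lower and 0 higher. In 67NR CD45+ cells Il1rl1 was highest in animal 1, at 4540, which had the lowest mast cell sum, 24372. It was lowest in animal 7, at 1192, which had the lowest fibroblast sum. In 66cl4 CD45+ cells Il1rl1 was lowest in animal 3, at 630, which had the lowest fibroblast sum and a mast cell sum of 8822. The summed epithelial markers ran the other way, at 623 to 960 in 66cl4 and 262 to 325 in 67NR CD45+ libraries. Cdh1 made up 292 to 516 and 212 to 256 of that sum. Of 4 epithelial markers tested, 2 were called higher in 66cl4, Krt8 and Krt18. Endothelial markers were summed at 718 to 1775 and 1077 to 2281, with 1 of 5 called lower. The part of fibroblasts, mast cells, epithelial and endothelial cells in the CD45+ levels was not tested.

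**Figure D3:**
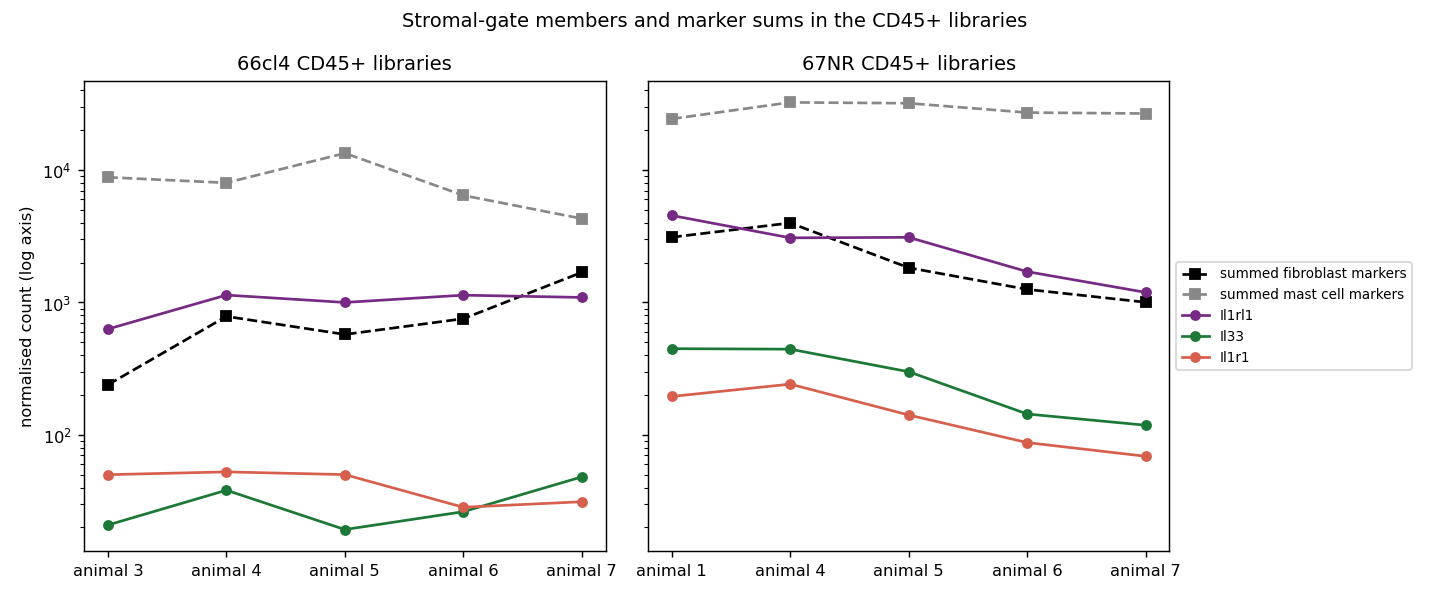
Normalised counts, on a log axis, of Il1rl1, Il33 and Il1r1 and of the summed fibroblast and mast cell markers in each CD45+ library, by animal (left, 66cl4, right, 67NR tumours). In 67NR tumours the fibroblast sum runs from 3987 in animal 4 to 1004 in animal 7, and Il33 from 448 in animal 1 to 118 in animal 7. Lines join libraries for reading only.

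In CD45- cells, mast cell markers were summed at 30.5 to 118 in 66cl4 and at 771 to 23206 in 67NR libraries, and all 9 tested were called lower in 66cl4. Il1rl1 was at 6513 to 11447 and 5582 to 9975 in the same libraries, and the part of mast cells in these levels was not tested. The macrophage sum was 200 to 2339 in 66cl4 and 1660 to 6014 in 67NR CD45- libraries, and 5 of 9 markers tested were called lower in 66cl4. Animal 5 of the 66cl4 tumours held the highest macrophage sum of its group and also the highest Il1a, Il1b, Il1rn and Nlrp3. Endothelial markers were summed at 523 to 1056 in 66cl4 and 1095 to 4347 in 67NR CD45- libraries, with 6 of 7 called lower in 66cl4. The fibroblast sum was 10374 to 16476 and 15081 to 24117, with 5 of 10 called lower and 1 higher. Without animals 5 and 6 with 66cl4 tumours, 3 of 10 fibroblast and 9 of 10 macrophage markers were called lower. The epithelial sum was 6113 to 6870 in 66cl4 and 148 to 540 in 67NR CD45- libraries, where 2 of 6 markers tested, Krt8 and Krt18, were called higher in 66cl4, by 6.47 and 4.32 on the log2 scale, and 1 lower. The monocyte sum was 58203 to 102515 and 92565 to 119859, most of it Fn1 in both groups, with 5 of 8 called lower in 66cl4. The part of these cell types in the lower Il1r1, Il1rap, Il18 and Il33 of 66cl4 CD45- cells was not tested.

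The rest of the pathway was read from 5 further lists. Of 18 genes known to respond to IL-1 that were tested in CD45- cells, 6 were called higher and 4 lower in 66cl4 tumours, beside 13.2% higher and 18.9% lower of all genes in that comparison. Il6, a cytokine induced by IL-1, was at 21.7 ± 7.7 in 66cl4 and 478 ± 141 in 67NR libraries of this fraction (SD, n = 5), a log2 fold change of -4.40 ± 0.25 (adjusted p = 3.5e-09). The neutrophil chemokine gene Cxcl3 was higher in 66cl4, at 784 ± 141 and 54.3 ± 65.3, by 3.85 ± 0.72 on the log2 scale (adjusted p = 0.0011). Ptgs2, which encodes the prostaglandin synthase COX-2, was at 17405 ± 3956 and 2038 ± 540, a log2 fold change of 3.13 ± 0.21 (adjusted p = 3.9e-08). The list as a whole had a median of -0.22 beside -0.01 for all genes, so its members moved in both directions.

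Among 12 inflammasome and processing genes tested in CD45- cells, 2 were called higher and 3 lower in 66cl4, beside the same 13.2% and 18.9% of all genes. P2rx7, the ATP-gated channel that triggers NLRP3, was at 20.6 ± 8.1 in 66cl4 and 465 ± 42 in 67NR libraries, a log2 fold change of -4.42 ± 0.20 (adjusted p = 2.2e-10). Casp1, the caspase that cleaves the precursors of IL-1 beta and IL-18, was at 727 ± 122 and 2883 ± 652, a log2 fold change of -1.96 ± 0.16 (adjusted p = 9.8e-08). Gsdmd, the pore former through which IL-1 beta leaves the cell, was higher in 66cl4, at 170 ± 21 and 83.5 ± 12, by 1.06 ± 0.14 on the log2 scale (adjusted p = 1.5e-05). The list median was -0.32.

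Of 19 genes of receptor signalling, 4 were called higher and 2 lower in 66cl4 CD45- cells, with a list median of 0.44. Together they were near the share of all genes called, 32.2%, and nothing is read from the list count. Among the kinases of the receptor complex, Irak2 was at 384 ± 39 in 66cl4 and 97.2 ± 13.8 in 67NR libraries, a log2 fold change of 2.01 ± 0.12 (adjusted p = 4.6e-09). Irak1 was at 1237 ± 157 and 2937 ± 176, a log2 fold change of -1.21 ± 0.10 (adjusted p = 8.7e-08). Irak3, an inhibitor of the pathway known from monocytes and macrophages, was at 9.78 ± 8.74 and 127 ± 13, a log2 fold change of -3.61 ± 0.39 (adjusted p = 2.2e-06).

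Of the other family receptors, 3 were tested in CD45- cells. Il18rap, the accessory chain of the IL-18 receptor, was called higher in 66cl4, at 2485 ± 390 and 218 ± 63, with a log2 fold change of 3.54 ± 0.18 (adjusted p = 1.3e-09). Il1rl2, the IL-36 receptor gene, was called lower, at 11.6 ± 4.8 and 33.4 ± 13.1, with a log2 fold change of -1.47 ± 0.37 (adjusted p = 0.0027). Of the 2 other ligand and antagonist genes tested, Il36g and Il18bp, edgeR called 0, with 1 higher and 1 lower at an unadjusted p under 0.05, and DESeq2, which tested 3, called 1 lower. Without animals 5 and 6 with 66cl4 tumours, the counts of the response, inflammasome and signalling lists in CD45- cells were the same, and 2 of 4 other receptors were called lower.

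**Figure D4:**
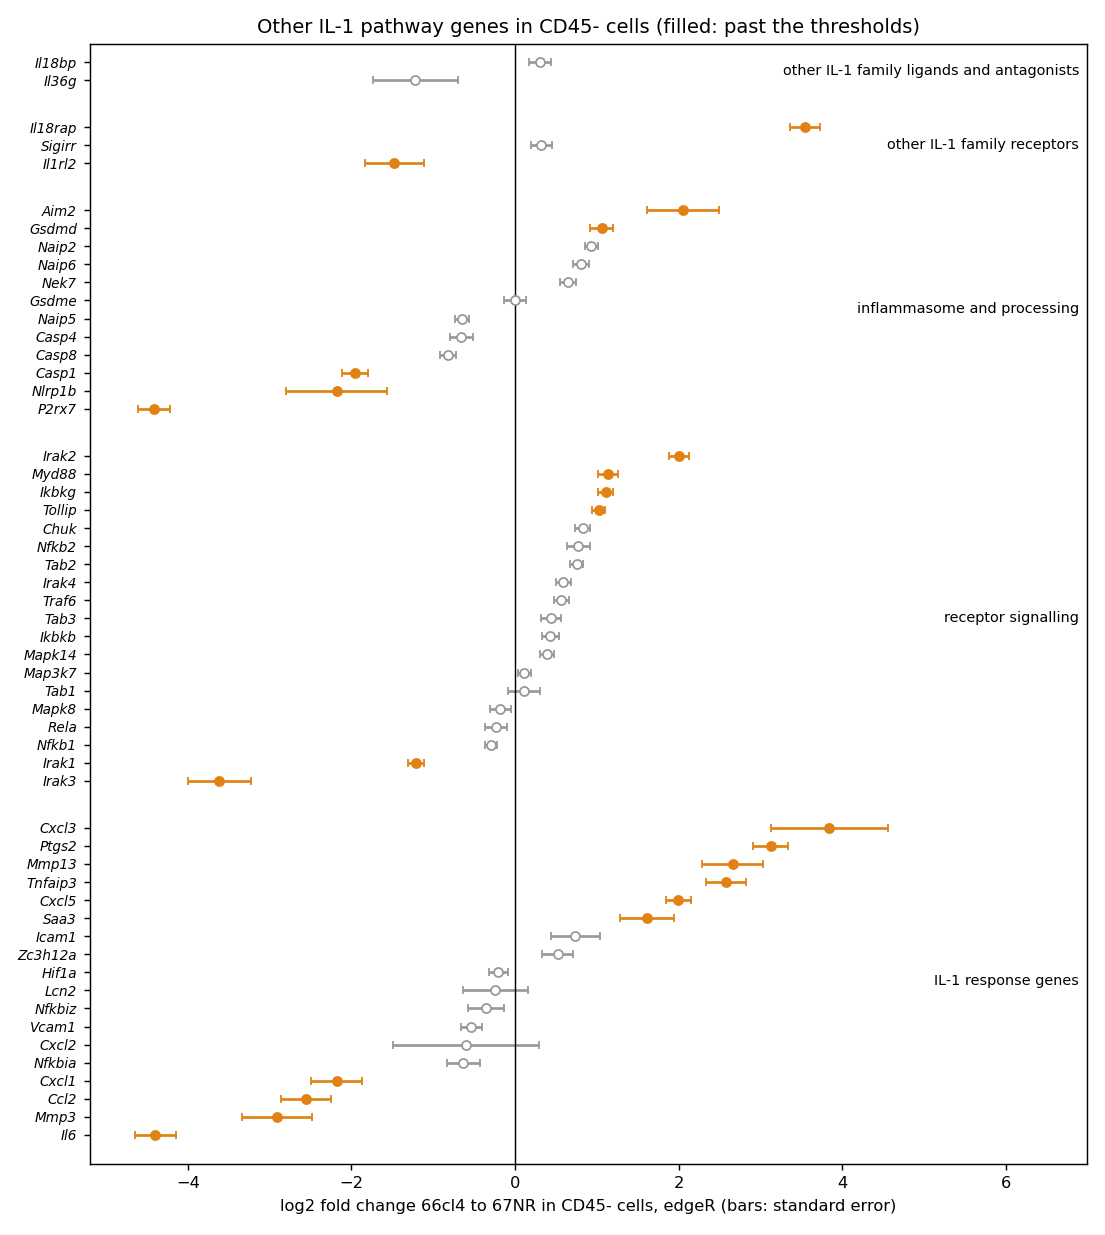
Log2 fold changes of 66cl4 to 67NR in CD45- cells, with standard errors from edgeR (5 against 5 libraries), for the other IL-1 pathway genes tested, by list. Filled points passed an adjusted p of 0.05 and a log2 fold change of 1. P2rx7 (-4.42) and Il6 (-4.40) lie farthest to the left, and Cxcl3 (3.85) and Il18rap (3.54) farthest to the right.

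In CD45+ cells the calls among the further pathway genes are read against the 5.01% higher and 6.82% lower of all genes. Of 19 response genes 3 were higher and 3 lower in 66cl4, of 16 inflammasome genes 1 was higher, and of 19 signalling genes 1 was higher. Of the 4 other receptors, edgeR and DESeq2 each called 0, with 1 higher at an unadjusted p under 0.05. Saa3, an acute phase gene, was higher in 66cl4 at 455 ± 281 and 42.7 ± 24.0 normalised counts, with a log2 fold change of 3.44 ± 0.55. Vcam1, an adhesion molecule, was lower at 148 ± 40 and 2081 ± 816 (-3.80 ± 0.29), as was the matrix protease gene Mmp3 at 10.8 ± 5.8 and 246 ± 188 (-4.46 ± 0.64). The IL-36 gamma gene Il36g was higher at 3415 ± 1222 and 774 ± 565 (2.13 ± 0.54), and Il18bp, which neutralises IL-18, was lower at 274 ± 12 and 982 ± 194 (-1.83 ± 0.14). Mefv, which encodes pyrin, and Irak2 were higher by 1.25 ± 0.26 and 1.24 ± 0.18. Without animals 5 and 6 with 66cl4 tumours, Il36g was no longer called in this comparison, and the counts of the response, inflammasome and signalling lists were the same.

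Between the gates, the inflammasome genes were called higher in CD45+ cells for 10 of 16 in 66cl4 and 9 of 16 in 67NR tumours, beside 23.9% and 20.2% of all genes called higher there. Both edgeR and DESeq2 called 0 of them lower, with 2 lower in each tumour at an unadjusted p under 0.05. Only 12 of the 16 passed edgeR's filter in the comparison of CD45- cells. The rest entered the edgeR fits between the gates through CD45+ libraries, where they are higher, so the counts are in part set by the filter. Pycard, the adaptor that joins NLRP3 to caspase-1, was higher in CD45+ cells by 7.17 ± 0.34 in 66cl4 and by 5.65 ± 0.40 in 67NR tumours, on the log2 scale. Its means were 390 in CD45+ and 2.37 in CD45- cells of 66cl4, and 391 and 7.67 in those of 67NR tumours. It thus entered the fits through the CD45+ libraries, and no p is given. Of the response genes, 13 of 18 were called higher and 3 lower in 66cl4, and 11 of 19 higher and 4 lower in 67NR tumours. Cxcl2, a neutrophil chemokine gene, rose by 8.18 ± 1.01 in 66cl4 (adjusted p = 1.6e-05) and by 5.67 ± 0.54 in 67NR CD45+ cells (adjusted p = 3.5e-06). All genes were called lower for 20.5% and 19.6%. Signalling genes were called higher for 5 of 19 and lower for 2 in 66cl4, near or under those shares, and higher for 7 of 19 in 67NR tumours. Of the 4 other receptors, 2 were called higher and 1 lower in 66cl4 and 3 higher in 67NR tumours, though only 3 passed the filter in CD45- cells. Of the 2 other ligands and antagonists 1 and 2 were called higher.

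The genes whose pattern was most like that of a member were sought among 16453 genes over the 20 libraries, by the root mean square difference of log2 CPM centred on each gene's mean. For Il1a these were F10 (0.32), Bend4 (0.50) and Hal (0.56), and for Il1b they included Clec7a (0.31) and Cxcl2 (0.54). For Il33 they were Tpm2 (0.28), Sertad4 (0.32) and Sox9 (0.34), and for Il1rl1 they were Nlrp4f (0.31), Cfl2 (0.31) and Epb41l4a (0.33). The likeness is a description of these libraries, which differ mostly by gate.

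Annotated genes overlap 6 of the members, namely Gm14023 with Il1a, Il1bos with Il1b, Gm38070 with Il1r1, Gm16894 and Gm37347 with Il1r2, Gm20319 with Il1rap, and Bco2 and Tex12 with Il18. Whether the strand was used in the counting is not given in the sources used here, so reads of such pairs may be shared. Il1rn, Il33, Il1rl1 and Nlrp3 overlap 0 annotated genes.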

How the data were processed

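Messenger RNA of sorted CD45+ and CD45- cells from 5 66cl4 and 5 67NR tumours was sequenced as single reads. According to the methods and the submitters' processing notes, the authors made the deposited estimated counts per gene with Salmon 1.3.0 and tximport. The sources name a human genome build, although the identifiers are mouse Ensembl genes. The strand setting is not given in the sources used here. Symbols and lengths (the median of coding transcripts) came from GENCODE on GRCm38, and 51492 of 52783 identifiers had a symbol.

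The deposited estimated counts, of which 15.1% to 18% of all values per library were not whole, were rounded. Levels are counts divided by DESeq2 (1.42.0) size factors. Tests used edgeR (4.0.16, R 4.3.3), with TMM, its filter on low counts (minimum 10, total 15) and the quasi-likelihood test, fitted over all genes and adjusted by Benjamini-Hochberg. The call took an adjusted p under 0.05 and a log2 fold change over 1, as in the study. The procedure was tested on simulated data. The 10 members and the gene lists were chosen with earlier results of these data known. Of each list, up to 3 called genes per comparison with the largest fold change were named, where libraries did not overlap and the mean was at least 10. Pycard, named in both tumours, is among these. Differences between replicate libraries exceeded counting noise (chi-square per degree of freedom 12.3 to 153), so none was merged. Replicates are separate mice. Both gates of an animal number come from the same mouse (correlations of deviations 0.03 to 0.23 for 66cl4 and -0.02 to 0.37 for 67NR mice), so the animal was tried as a block. Alternatives were DESeq2, other size factors, filters, all libraries in the fit, leaving out each library, and leaving out animals 5 and 6 of the 66cl4 tumours, which for the pathway lists was added after seeing the data. Promoter sequences are RefSeq's. A gene of similar pattern to Il1b is not reported here.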

Additional observations from a re-analysis of the deposited data

Results flagged for a closer look

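Of 40 groups of 5 libraries (10 genes in 4 groups), 5 held a library far from the other 4 by Dixon's test, where chance gives about 2. These were Il1rn at 193 and Nlrp3 at 37.5 normalised counts in the CD45- library of animal 5 with a 66cl4 tumour, and Nlrp3 at 10122 in the CD45+ library of the same animal. The others were Il1r2 at 3290 in the CD45+ library of animal 1 with a 67NR tumour, and Il1rl1 at 630 in the CD45+ library of animal 3 with a 66cl4 tumour. In CD45- cells, animal 5 also held the highest macrophage marker sum of its group, 2339, beside 200 to 1082 in the other 66cl4 animals, and Ptprc at 138 was second to 161 in animal 7. Their part in the values was not tested.

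The tumour effect in CD45+ minus that in CD45- cells, a signed difference of log2 fold changes, passed edgeR's threshold (adjusted p under 0.05) in 7 genes. The CD45+ values had been used to choose members, so this is a description and not independent evidence of a difference. It was 2.57 for Il1a, 2.38 for Il1b, 3.20 for Il1rap, 1.12 for Il18, -1.21 for Il33, -1.79 for Il1rl1 and 3.15 for Nlrp3. Il33 missed the threshold with the animal as a block, and Il1a and Il33 missed it without any of several single libraries.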

How the results depend on the processing

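Counts of members called were within 1.5 times of the reported ones under 32 of 33 alternatives that kept or changed the method, and under all 60 that left out 1 library, and no direction of a called gene turned. Without animals 5 and 6 of the 66cl4 tumours, 5 members in place of 8 were called between the tumours in CD45+ cells, where Il1b was at 0.88, Il1r2 at 1.59 and Il1rl1 at -1.52. The counts in that comparison describe members chosen on it. With the replicate block, 8 and 5 members were called between the tumours in CD45+ and CD45- cells, 10 and 9 between the gates and 7 for the difference by gate. Between the tumours the numbers are only shared (correlations -0.19 to 0.12), and there the block put Il1rap in the calls at 1.15 and Il1rl1 outside at -0.95. In CD45+ cells, Il1r2 missed the threshold without 67NR CD45+ replicate 4 (1.89) or 5 (1.91) and without the filter (2.02), Il1b missed it with all 20 libraries in the fit (1.27), and Il1rap passed without 67NR CD45+ replicate 1. For the difference by gate, Il1a and Il33 lost their calls without several single libraries and without the filter, and Il1rn gained one without 66cl4 CD45- replicate 5 (2.79) and without animals 5 and 6 (2.77). The cause of these changes was not tested. Depth limits Il1a and Nlrp3 in CD45- cells, where single libraries held few counts.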

Other observations

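Il18rap and its partner Il18r1 lay apart in the CD45- fraction. In 66cl4 CD45- cells Il18rap, the signalling chain of the IL-18 receptor, was at 1968 to 2974 normalised counts, beside 1227 to 2050 in 66cl4 CD45+ cells, which overlapped (log2 fold change of CD45+ to CD45- cells -0.69 ± 0.16, edgeR adjusted p = 0.0016, under the fold threshold). Il18r1, the ligand-binding chain, was at 2.12 to 5.61 in those cells. For 67NR CD45- libraries the ranges were 174 to 327 for Il18rap and 5.27 to 12 for Il18r1. In CD45+ cells Il18r1 was at 179 to 452 in 66cl4 and 151 to 537 in 67NR libraries. Il18r1 was chosen for this comparison after its values were seen.

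Ptgs2 in 66cl4 CD45- cells, at 12302 to 21898 normalised counts, overlapped the 3183 to 15444 of 67NR CD45+ cells. Cxcl5, another neutrophil chemokine gene of the response list, was lower in CD45+ than CD45- cells of 66cl4 tumours by a log2 fold change of -4.34 ± 0.35 (edgeR adjusted p = 3.5e-07).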
